A study of Mus musculus with 2 samples.

Results

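Blood endothelial cells of orthotopic KPC pancreatic tumors were taken from a probe-based single-cell RNA data set by a rule on marker genes. A member had at least 500 UMIs (counted RNA molecules), at least 4 of the 8 genes Pecam1, Cdh5, Kdr, Flt1, Emcn, Tie1, Egfl7 and Plvap detected, a summed share of those genes of at least 0.2% of its UMIs, and no UMI of Prox1, the transcription factor that marks lymphatic endothelium. The rule found 332 of 24282 cells. The tumors had been treated with DMSO, a solvent, or with EIPA at 10 mg/kg. EIPA is an amiloride derivative that blocks sodium-proton exchange and is used to inhibit macropinocytosis, the bulk uptake of extracellular fluid. Each treatment is 1 sample made from 4 pooled, flash-frozen tumors as a fixed cell suspension, so differences among animals cannot be seen, and the strain, age and length of treatment are not given in the sources used here. Cell barcodes carry a library number, 1 or 2, and no label ties a number to a treatment. Ratios are given as library 2 over library 1, an arbitrary order that has no treatment direction. With 1 library each there was no test, and the 95% intervals cover counting error only.

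Blood endothelial cells line vessels and control the passage of fluid, solutes and leukocytes. Vascular endothelial growth factor acts on them through Kdr and its decoy-like relative Flt1, and a sprouting vessel is led by tip cells whose number is limited by Dll4 and Notch. Arterial, venous and capillary cells differ in junctions, leukocyte adhesion and lipid handling, and pancreatic tumors are known for sparse vessels in dense matrix.

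Library 1 held 183 members, 1.48% of 12337 cells (Clopper-Pearson interval 1.28 to 1.71). Library 2 held 149 members, 1.25% of 11945 cells (1.06 to 1.46). The ratio of the shares was 0.841 (0.673 to 1.05), an interval that includes 1. Members had a median of 4448 UMIs in library 1 and 5401 in library 2, against 11695 and 10756 over all cells. All 8 markers were detected in 110 and 76 members, and the minimum of 4 in 8 and 2 members. Just inside the share limit, from 0.2% to 0.3%, lay 22 and 13 members, and just outside, from 0.1% to 0.2%, lay 38 and 20 cells. A further 13 cells of each library were left out only for a Prox1 UMI. The libraries shared 225 barcode sequences, and 0 of these were members in both.

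The members were not all of 1 kind. Leiden clustering of the 332 cells gave 5 clusters. Cluster 1 (90 cells) had a median of 13629.5 UMIs and a median marker share of 0.421%, and all 9 epithelial tumor markers stood at least 2-fold above the other members. Cluster 5 (20 cells) was led by Ccl17, a chemokine of myeloid cells, and also by Apoe and MHC class II genes, and all 8 macrophage markers stood at least 2-fold above the other members. Scrublet, which scores barcodes that resemble a pair of cells added together, marked 46 and 28 cells of cluster 1 and 4 and 9 cells of cluster 5. Clusters 2, 3 and 4 held 119 cells of library 1 and 103 of library 2, of which 3 and 2 were marked, and each had a median marker share above 1%. These 222 cells are called marker-rich cells. That grouping was chosen after the data were seen. Cluster 1 alone gave 50.6% of the members' UMIs, so values are given for all members and for marker-rich cells.

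**Figure D1:**
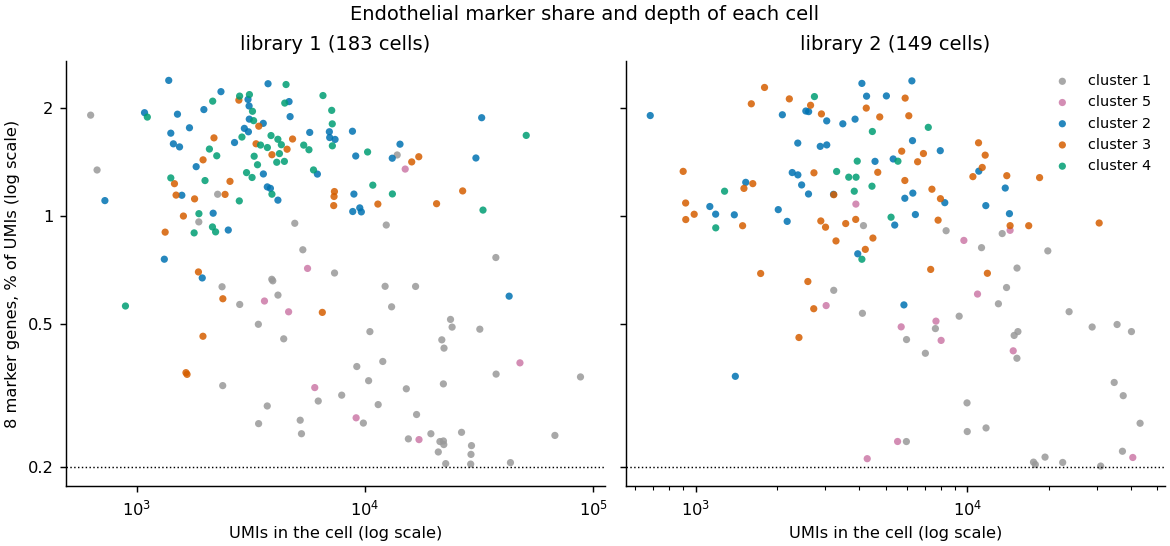
Share of the 8 marker genes in the UMIs of each member (vertical axis, percent, log scale) against its UMIs (horizontal axis, log scale), for library 1 (183 cells) and library 2 (149 cells). Points are cells colored by cluster and the line is the limit of 0.2%; cluster 1 cells have a median of 13629.5 UMIs and a median share of 0.421%, and lie low and to the right.

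Epithelial tumor markers summed to 3821 CPM (UMIs of a gene scaled to the same total in each group of cells) in all members of library 1 and 2852 CPM in library 2. In marker-rich cells they summed to 1176 and 1359 CPM, which is 18.5% and 21.3% of the level in the other cells of the libraries. Of the lymphatic genes, Reln had no UMI in any member, and Mmrn1 stood at 2.27 and 0.788 CPM. Lyve1, a hyaluronan receptor of lymphatic vessels and some macrophages, had a UMI in 15 and 21 members, at 31.8 and 26.0 CPM against 1.77 and 2.42 CPM in other cells. Flt4, a receptor of lymphatic vessels that sprouting blood vessels also use, stood at 487 and 386 CPM against 122 and 130 CPM. The defining lymphatic genes were thus at or near 0, while Lyve1 and Flt4 were detected.

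Promoter windows of the most selective genes were compared with those of wider sets of genes. Of 8132 genes outside the rule with at least 20 CPM in members of both libraries, 377 (4.64%) stood at least 5-fold above all other cells in both, on the CPM + 1 scale. In marker-rich cells 516 of 7464 (6.91%) did. RefSeq windows (GRCm38.p6, 250 bases before to 50 after the start) existed for 262 of the 377. They were searched on both strands for AGGAAG and CGGAAG, spellings of the core read by ETS factors such as Erg, which cannot start at the same base. AGGAAG was in 43.5% of these windows, in 32.9% of 6484 windows of genes at 20 CPM or more in members of both libraries, and in 35.1% of all 27018 windows. CGGAAG was in 12.6%, 34.7% and 17.2%, and either spelling in 50.8%, 56.1% and 46.4%. The more frequent spelling therefore differed between the sets, while either spelling together was no more frequent in the selective genes than in genes at that level. A match describes letters, not binding. Robo4 (a vessel-stabilizing receptor, chr9:37401722-37402021, plus strand), Tie1 (a rule gene, chr4:118489800-118490099, minus strand) and Esm1 (the gene with the highest fold, chr13:113209409-113209708, plus strand) are printed because they hold 1, 3 and 0 matches. Each runs 5′ to 3′ on the gene's strand, with matches in capitals.
Robo4: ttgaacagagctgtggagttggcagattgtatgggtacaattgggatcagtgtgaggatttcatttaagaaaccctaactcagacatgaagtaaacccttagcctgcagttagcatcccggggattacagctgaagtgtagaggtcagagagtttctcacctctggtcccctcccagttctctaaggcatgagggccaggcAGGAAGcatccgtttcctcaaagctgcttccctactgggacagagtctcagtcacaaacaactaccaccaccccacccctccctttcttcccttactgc
Tie1: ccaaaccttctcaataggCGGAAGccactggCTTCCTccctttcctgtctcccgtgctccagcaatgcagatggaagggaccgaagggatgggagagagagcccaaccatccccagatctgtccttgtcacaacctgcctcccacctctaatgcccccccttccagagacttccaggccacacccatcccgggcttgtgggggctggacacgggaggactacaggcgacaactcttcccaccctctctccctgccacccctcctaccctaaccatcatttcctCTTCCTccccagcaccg
Esm1: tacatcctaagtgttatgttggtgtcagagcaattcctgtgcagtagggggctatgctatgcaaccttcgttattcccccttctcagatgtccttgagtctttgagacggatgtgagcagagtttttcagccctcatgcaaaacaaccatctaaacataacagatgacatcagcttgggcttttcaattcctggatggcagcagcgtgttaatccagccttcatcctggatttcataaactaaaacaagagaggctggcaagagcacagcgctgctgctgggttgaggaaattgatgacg

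The 12 genes with the highest folds over other cells were Esm1, Col13a1, Inhbb, Adgrl4, Sox18, Gpihbp1, Cd300lg, Vwa1, Ushbp1, Arhgef15, Trp53i11 and Cldn5. Cells chosen by endothelial genes hold more of other endothelial genes by the choice itself, so these levels are a description. Esm1, a secreted proteoglycan of tip cells, stood at 717 and 726 CPM in members and at 2.44 and 2.68 CPM in other cells. It had a UMI in 72 of 183 and 78 of 149 members, so many members lacked it. Adgrl4, an adhesion receptor of growing vessels, stood at 492 and 563 CPM against 2.08 and 1.71 CPM and had a UMI in 153 and 133 members. Sox18, a transcription factor of vessel development, stood at 412 and 375 CPM against 1.78 and 1.25 CPM. Col13a1, a transmembrane collagen, stood at 292 and 445 CPM against 0.699 and 0.744 CPM.

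Junction and identity genes made up the most selective list. Of 21 with at least 20 CPM in members of both libraries, 18 passed 5-fold, with a median fold of 92.1 against 0.851 over all genes at that level. In marker-rich cells 19 of 21 passed. Esam, an adhesion molecule of endothelial junctions, stood at 1219 and 1291 CPM against 10.3 and 10.7 CPM in other cells. Robo4 stood at 330 and 435 CPM against 1.5 and 1.47 CPM. Eng, a co-receptor for TGF-beta and BMP ligands, stood at 1534 and 1251 CPM against 15.6 and 10.3 CPM. Podxl, a sialomucin of the vessel lumen that epithelium also makes, did not pass, at 535 and 462 CPM against 424 and 315 CPM.

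Transcription factors of the lineage were split, with 10 of 21 past 5-fold in all members and 13 of 21 in marker-rich cells. Erg, an ETS factor that maintains endothelial identity, stood at 103 and 104 CPM against 0.699 and 0.554 CPM. Tal1, shared with blood, stood at 59.1 and 53.6 CPM against 0.327 and 0.255 CPM, and Gata2, also shared with blood, at 75.6 and 76.4 CPM against 0.436 and 0.635 CPM. Klf4, which epithelium uses as well, stood at 135 and 111 CPM against 178 and 165 CPM. Foxo1, a growth-restraining factor, was also close to its level elsewhere, at 71.1 and 82.7 CPM against 50.4 and 48.9 CPM.

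**Figure D2:**
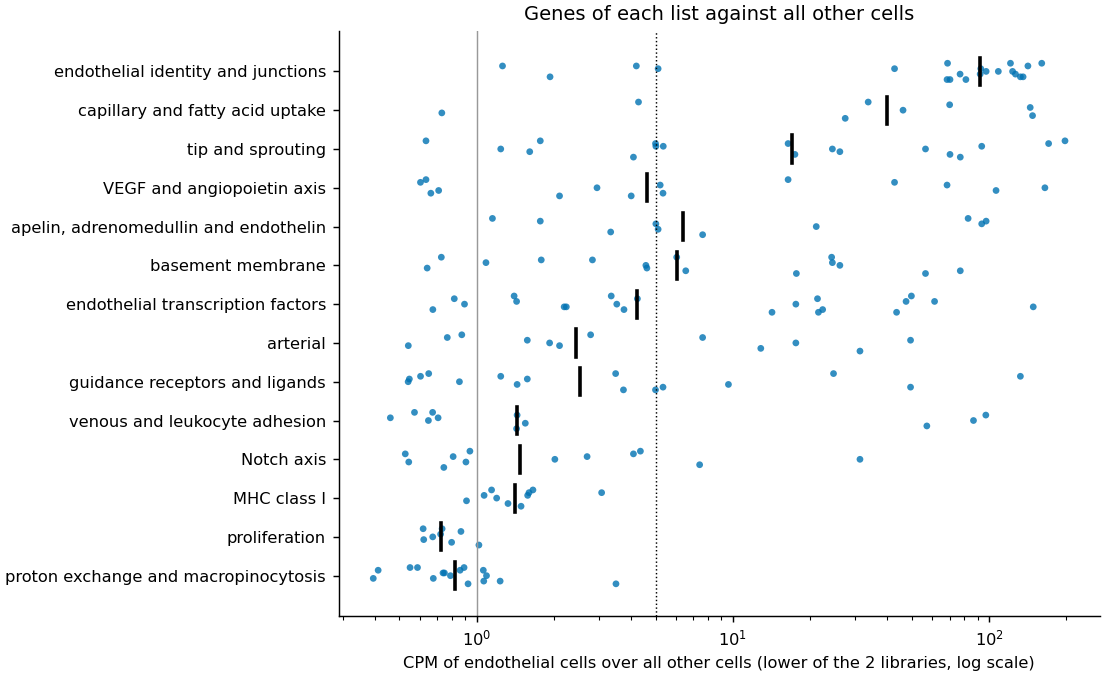
Fold of members over all other cells for genes of the lists named on the vertical axis (horizontal axis, CPM + 1 scale, log axis, the lower fold of the 2 libraries), 1 point a gene with at least 20 CPM in members of both libraries. Bars mark list medians and the line the 5-fold rule; the identity list has a median of 92.1 and the proliferation list 0.729.

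Receptors and ligands of the VEGF and angiopoietin systems differed in how selective they were. Tek, the angiopoietin receptor, stood at 102 and 104 CPM against 0.511 and 0.380 CPM in other cells. Nrp1, a co-receptor for VEGF and semaphorins, stood at 204 and 164 CPM against 37.3 and 28.1 CPM. Angpt2, the ligand that sprouting endothelium releases to loosen vessels, was selective too, at 176 and 191 CPM against 9.77 and 8.06 CPM. Vegfa stood at 138 and 109 CPM in marker-rich cells and at 893 and 759 CPM in other cells. Angpt1, which stabilizes vessels and comes from mural cells, had no UMI in library 1 members and stood at 1.58 CPM in library 2.

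Tip cell genes passed 5-fold in 12 of 18 cases, with a median fold of 16.9, and in 14 of 18 in marker-rich cells. Apln, a peptide of tip cells, stood at 248 and 292 CPM against 1.67 and 2.11 CPM. Its receptor Aplnr, a venous and capillary gene, stood at 360 and 540 CPM against 16.1 and 13.0 CPM. Of the Notch genes 2 of 12 passed in all members: Jag2, a Notch ligand, and Hey1, a Notch target, at 115 and 117 CPM against 2.70 and 2.00 CPM. In marker-rich cells 5 of 12 Notch genes passed. Dll4, the Notch ligand of tip and arterial cells, stood at 756 and 703 CPM against 127 and 171 CPM.

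Capillary genes were selective where present, with 6 of 8 past 5-fold and a median fold of 39.9, and 7 of 8 in marker-rich cells. Gpihbp1, which carries lipoprotein lipase across capillary cells, stood at 805 and 433 CPM against 4.47 and 1.58 CPM in other cells. Fabp4, a fatty acid binding protein, stood at 215 and 250 CPM against 3.70 and 2.31 CPM. Other genes of fatty acid handling were nearly missing: the transporter Cd36 stood at 7.39 and 3.15 CPM, and the lipase Lpl at 1.14 and 2.36 CPM. Venous genes were less selective, with 3 of 11 past 5-fold in all members and in marker-rich cells. Lrg1, a secreted modifier of TGF-beta signaling, stood at 670 and 492 CPM against 8.04 and 7.63 CPM, and Vwf, the platelet-binding factor, at 167 and 137 CPM against 0.858 and 0.592 CPM. The leukocyte adhesion genes Sele (4.55 and 6.30 CPM) and Ackr1 (2.84 and 13.4 CPM) were low.

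Basement membrane genes were high and shared with pericyte-marker cells, and in part with fibroblast-marker cells. Of 15, 8 passed 5-fold over all other cells in all members, and 10 of 15 did in marker-rich cells. In all members 0 of 15 passed over pericyte-marker cells, against 2.25% of the 8132 genes, and 1 of 15 over fibroblast-marker cells, against 2.84%. Counts this small say nothing particular about the list, so the sharing is read from levels. The median fold over fibroblast-marker cells was 2.15. Over macrophage-marker cells 10 of 15 passed, against 4.16% of the 8132 genes. Col4a1, a chain of type IV collagen, stood at 9331 and 9635 CPM in members, 381 and 387 CPM in other cells, and 9161 and 9614 CPM in pericyte-marker cells. Sparc, a matrix protein that binds collagen, stood at 9615 and 6973 CPM in members and 8531 and 8280 CPM in pericyte-marker cells. Nid2, which links laminin to collagen, was nearer to the endothelium, at 543 and 467 CPM against 100 and 116 CPM.

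Neighboring cells narrowed the contrast. Cells passing a pericyte, fibroblast or macrophage marker rule numbered 134, 912 and 1490. Each rule asked for at least 500 UMIs, at least 4 markers of its list and a summed share of that list. The share was at least 0.2% of UMIs, or 1% for fibroblasts, and members were left out. Of the 8132 genes, 183 (2.25%) stood at least 5-fold above pericyte-marker cells in both libraries, 231 (2.84%) above fibroblast-marker cells, 338 (4.16%) above macrophage-marker cells, and 141 (1.73%) above each. Mcam, an adhesion molecule of vessel walls, stood at 825 and 842 CPM in members and 862 and 1107 CPM in pericyte-marker cells.

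A pair of genes on the pericyte list was also carried by marker-rich endothelial cells. Abcc9 and Kcnj8 encode the subunits of a potassium channel that opens when ATP is low. Abcc9 had a UMI in 74 of 119 and 36 of 103 marker-rich cells, at 394 and 161 CPM, against 412 and 364 CPM in pericyte-marker cells. Kcnj8 had a UMI in 41 and 28 of them, at 186 and 120 CPM, against 238 and 234 CPM. Rgs5, a signaling regulator that defines pericytes, had a UMI in only 12 and 6, at 64.7 and 61.9 CPM against 1080 and 1215 CPM. Notch3, the Notch receptor of mural cells, had a UMI in 5 and 3, at 45.4 and 45.0 CPM against 841 and 1012 CPM. Abcc9, Kcnj8, Rgs5 and Notch3 are on the list that chose the pericyte-marker cells, so their levels in those cells follow in part from the choice. In cluster 4 Abcc9 stood at 542 CPM and Kcnj8 at 261 CPM, while Rgs5 and Cspg4, a proteoglycan of pericytes, had no UMI. In cluster 2 Abcc9 stood at 293 CPM, Kcnj8 at 202 CPM and Rgs5 at 122 CPM, and the part of pericyte RNA there was not tested.

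The 3 marker-rich clusters differed in their leading genes, which the clustering itself used. Their separation depended on the clustering setting, as given in the last section. The counts below are set against all other members, including cluster 1, whose median marker share was 0.421%. Of the 8 rule markers, 4 stood at least 2-fold above the other members in cluster 2, 1 in cluster 3 and 5 in cluster 4. Counts of endothelial markers near these, such as the capillary-like count in cluster 2, are not particular to a vessel type. Cluster 2 (87 cells) was led by Esm1, Gja4, Prnd, Angpt2, Hey1 and Cxcr4, and 7 of 9 tip-like, 6 of 9 arterial-like, 5 of 10 capillary-like and 5 of 8 pericyte markers stood at least 2-fold above the other members. The pericyte markers included Rgs5, with a UMI in 14.9% of cluster 2 cells, and Notch3, in 5.75%. Cxcr4, a chemokine receptor of tip cells, stood at 648 and 353 CPM there. Cluster 3 (77 cells) was led by Madcam1, a receptor for gut-homing leukocytes, and by Cdk1, with 7 of 8 cycling and 5 of 8 venous-like markers at 2-fold, and 3 of 8 T cell markers as well. Madcam1 stood at 431 and 271 CPM in cluster 3 and had no UMI in cluster 2. Its median mitochondrial share was 2.09%, against 0.600% in cluster 2 and 0.420% in cluster 4. Cluster 4 (58 cells) was led by Igfbp5, an insulin-like growth factor binding protein, Klk8 and Ramp3, with Cldn5 and Inhbb among its top genes. Igfbp5 stood at 4223 and 3029 CPM in cluster 4 and at 16.8 and 85.6 CPM in cluster 2. Lyve1 stood at 131 CPM in cluster 4 and 17.7 CPM in the other members, with a UMI in 12.1% of the cluster's cells, and Flt4 at 924 and 389 CPM. Clusters 2, 3 and 4 held 46, 29 and 44 cells of library 1 and 41, 48 and 14 of library 2, so sums over marker-rich cells weigh the clusters differently in each library.

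**Figure D3:**
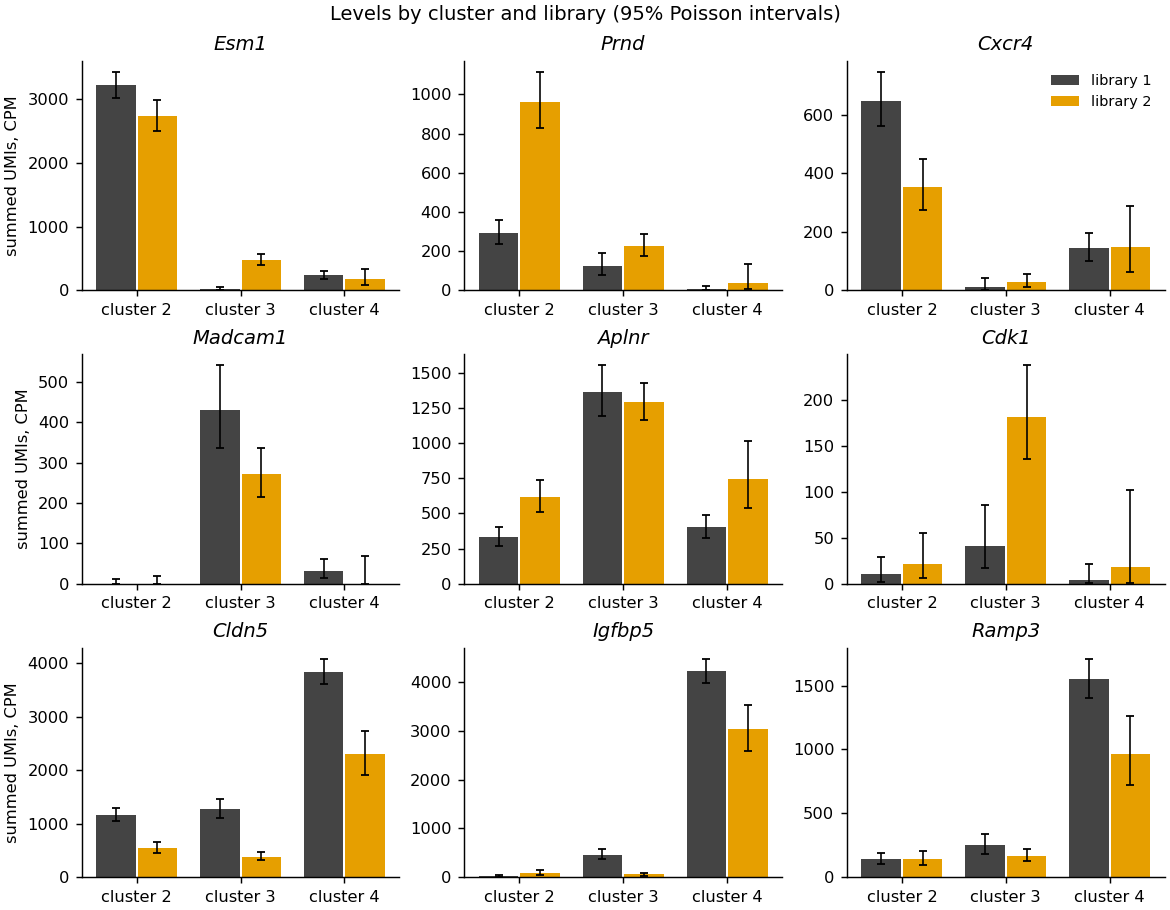
Levels of 9 leading genes in clusters 2, 3 and 4 (bars, vertical axis in CPM from 0, 1 panel a gene), by library, with 95% Poisson intervals as error bars. Madcam1 has no UMI in cluster 2, and Igfbp5 stands at 4223 and 3029 CPM in cluster 4.

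Few genes passed 2-fold between the libraries. Of 8968 genes with at least 20 CPM in members of 1 library, 182 (2.03%) were at least 2-fold higher in library 2 and 76 (0.847%) at least 2-fold lower, with a median log2 ratio of 0.03. In marker-rich cells, with fewer UMIs behind each value, 528 of 8639 (6.11%) were higher and 205 (2.37%) lower, with a median of 0.10. The identity list had 0 of 21 genes higher and 1 lower, and the transcription factor list had 0 and 0 of 21 in all members.

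That 1 gene was Cldn5, the claudin that seals endothelial tight junctions. Cldn5 stood at 1143 CPM in library 1 and 440 CPM in library 2 over all members, a log2 ratio of -1.38 (-1.52 to -1.24). In marker-rich cells it stood at 2144 and 636 CPM. Since cluster 4 is rich in Cldn5, values within clusters matter: they were 1165 and 546 CPM in cluster 2, 1274 and 380 CPM in cluster 3, and 3837 and 2299 CPM in cluster 4. Library 2 was lower in each of the 3. Other genes of endothelial contacts varied: Esam had a log2 ratio of 0.08 over all members and Robo4 0.40, while the junction cadherin Cdh5, a rule gene, had -0.43 and the junction molecule Jam2 -0.26. The identity list summed to 17099 and 14792 CPM in marker-rich cells, a log2 ratio of -0.21 (-0.25 to -0.17). Cldn5 is part of that sum, and the list median was -0.09. Within clusters 2, 3 and 4 the intervals of the summed ratio were -0.13 to -0.0048, -0.12 to 0.030 and -0.18 to 0.016.

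Other genes lower in library 2 included several of cluster 4, which held 44 cells of library 1 and 14 of library 2. Igfbp5 stood at 1620 and 369 CPM in marker-rich cells, but at 4223 and 3029 CPM within cluster 4, 460 and 51.4 CPM within cluster 3, and 16.8 and 85.6 CPM, in the opposite direction, within cluster 2. The 3 cells with most Igfbp5 held 70.1% and 55.4% of its UMIs over all members. Ramp3, which forms the adrenomedullin receptor with Calcrl, stood at 668 and 238 CPM in marker-rich cells, while Calcrl stood at 196 and 165 CPM. Within clusters Ramp3 differed less than 2-fold, at 138 and 139 CPM in cluster 2, 248 and 165 CPM in cluster 3, and 1552 and 967 CPM in cluster 4. Ptn, a heparin-binding growth factor, stood at 435 and 75.0 CPM, and was lower in library 2 within each cluster, at 537 and 42.8 CPM, 189 and 96.0 CPM, and 479 and 73.0 CPM. Adamts5, a proteoglycan-cutting protease, stood at 275 and 109 CPM, but at 428 and 420 CPM within cluster 4. Ednrb, the endothelin receptor of endothelium, stood at 622 and 274 CPM, and within clusters 2, 3 and 4 at 463 and 246 CPM, 342 and 254 CPM, and 988 and 474 CPM. Gpihbp1 stood at 1410 and 660 CPM, and within the clusters at 1172 and 867 CPM, 478 and 387 CPM, and 2293 and 1405 CPM.

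Higher in library 2 were Clec2e, a C-type lectin, at 6.82 and 51.2 CPM in all members and 11 and 99.4 CPM in marker-rich cells, and Prnd, a prion-like protein of developing vessels, at 150 and 465 CPM in marker-rich cells. Prnd was higher in library 2 within cluster 2 (292 and 963 CPM) and within cluster 3 (124 and 226 CPM). Edn1, the vasoconstrictor endothelin, stood at 34.4 and 103 CPM in marker-rich cells, opposite to its receptor Ednrb. Cxcl12, a chemokine that retains leukocytes, stood at 16.5 and 109 CPM. mt-Nd6, a mitochondrial gene, stood at 276 and 742 CPM in members, but also at 155 and 350 CPM in other cells. Eln, elastin, at 82.4 and 463 CPM, and Mgp, a matrix protein, at 37.5 and 184 CPM, were higher only with clusters 1 and 5 included: in marker-rich cells they stood at 82.6 and 60.0 CPM and at 42.7 and 28.1 CPM. The 3 cells with most Eln gave 92.9% of its UMIs in library 2. Fibroblast markers summed to 1553 and 2875 CPM in all members and to 811 and 1065 CPM in marker-rich cells, and fibroblast-marker cells held Eln at 1379 and 3290.5 CPM and Mgp at 1500.5 and 1826 CPM. The part of fibroblast RNA was not tested.

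**Figure D4:**
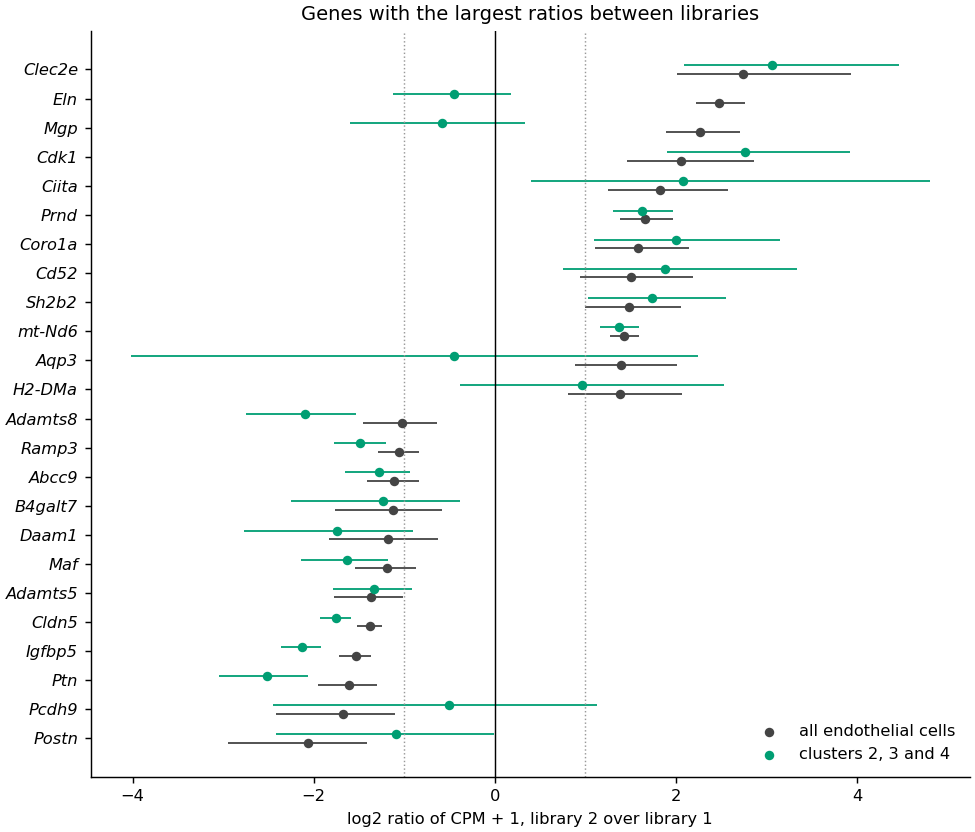
Log2 ratio of CPM + 1, library 2 over library 1 (horizontal axis), for the 12 genes with the highest and the 12 with the lowest ratios by the naming rule, with 95% counting intervals, in all members and in clusters 2, 3 and 4. Dotted lines mark 2-fold; Cldn5 lies below the line in both sets, while Eln and Mgp lie above it in all members and below 0 in clusters 2, 3 and 4.

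Proliferation and MHC class II genes had the highest list medians between libraries, and both lists were also higher in library 2 among the other cells. Of 13 proliferation genes, 7 were at least 2-fold higher in all members, against 2.03% of all genes, and 0 were lower. Their median log2 ratio was 1.02, against 0.73 in other cells. Only 8 of the 13 reached 20 CPM in both libraries. In marker-rich cells 12 of 15 were higher, against 6.11% of all genes, with a median of 2.35. Only 3 of the 15 reached 20 CPM in both libraries. The others entered through the library where they were higher, so this count and median follow in part from the filter. Top2a, which untangles DNA in mitosis, stood at 17.9 and 95.6 CPM in marker-rich cells, and Rrm2, an enzyme of nucleotide synthesis, at 17.9 and 101 CPM. At least 3 cycling markers were found in 4 of 119 marker-rich cells (3.36%, 0.923 to 8.38) and in 13 of 103 (12.6%, 6.89 to 20.6), against 14.2% and 24.1% of other cells. With each cell thinned to 1000 UMIs, a cycling UMI was found in 9.40% (4.79 to 16.2) and 19.4% (12.1 to 28.6) of marker-rich cells, and these intervals overlap. In other cells the shares were 10.7% and 19.2%. The median log2 ratio of the proliferation list within clusters 2, 3 and 4 was 0.72, 1.93 and 1.40, over 8, 16 and 5 genes that passed the same kind of filter.

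T cell markers were higher in library 2 as well. They summed to 17.9 and 154 CPM in marker-rich cells and to 16.8 and 41.7 CPM in other cells, 0 and 3 marker-rich cells held at least 3 of them, and their part in the values above was not tested. MHC class II genes present antigen and are made by macrophages and activated endothelium. In all members 6 of 6 were at least 2-fold higher, against 2.03% of all genes, with a median of 1.19 against 0.58 in other cells. All members include cluster 5, which held H2-Ab1 at 2747 CPM against 114 CPM in the other members. That cluster gave 6.20% and 10.1% of the members' UMIs, and its part was not tested. In marker-rich cells 3 of 6 were at least 2-fold higher, against 6.11% of all genes, with a median of 0.999. In this set and in all members, 4 of the 6 genes reached 20 CPM in both libraries. Cd74, the class II chaperone, stood at 306 and 540 CPM in marker-rich cells, below the 1098 and 1670 CPM of other cells. Macrophage markers summed to 156 and 246 CPM in those cells, and their part was not tested. The MHC class I list stood at a median of 0.55 in all members, below the 0.83 of other cells, and at 0.18 in marker-rich cells. Within clusters 2, 3 and 4 its median was 0.20, 0.67 and 0.69, each above the pooled value for marker-rich cells. Of 10 class I genes in marker-rich cells, 6 had a log2 ratio above 0 and 2 were at least 2-fold higher. H2-K1 stood above the median of 0.18, at 713 and 1326 CPM in marker-rich cells and 505 and 965 CPM in other cells.

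The list of the compound's known target process was near the background of all genes. Of 18 proton exchange and macropinocytosis genes, 1 was higher and 0 lower in all members, with a median of 0.13, and 0 of 14 passed in marker-rich cells. Over all genes 2.03% were higher and 0.847% lower in members, and 6.11% and 2.37% in marker-rich cells, so counts this small say nothing particular about the list. Slc9a2, an exchanger of epithelium, was the 1 that passed, at 11.9 and 44.1 CPM, and stood at 5.51 and 16.9 CPM in marker-rich cells. The hypoxia and glycolysis list had 0 of 18 past 2-fold in either direction in all members, with a median of -0.18. Within clusters 2, 3 and 4 its median was -0.52, -0.23 and 0.27, so the direction differed by cluster.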

How the data were processed

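Cells came from 2 samples of pooled tumors, profiled with probe-based fixed RNA libraries. The authors deposited 1 matrix of UMI counts for both, 19059 genes by 24282 cells, made with Cell Ranger 8.0.0 on mm10, per the submitters' processing notes. Probes differ in efficiency, so levels were not compared between genes. Libraries held 203459556 and 185474400 UMIs. Barcode suffixes gave the library number. Counts were summed over cells and divided by the summed UMIs (CPM), with a pseudocount of 1 for ratios. Clustering used scanpy 1.11.5 (1500 variable genes, 20 components, 15 neighbors, Leiden resolution 0.5). Scrublet used a rate of 0.8% per 1000 cells; marked cells were kept and left out as an alternative. Intervals are exact Poisson, Clopper-Pearson or conditional ratio intervals, and cover counting error only. With 1 library per treatment no test was made. Members and gene lists were chosen with earlier results of these data known. Beyond the lists, named genes were the 12 with the highest fold over other cells and the 12 highest and 12 lowest ratios between libraries, with at least 50 CPM, non-overlapping Poisson intervals and a UMI in at least 10 member cells. Scripts were tested on simulated data. Alternatives covered scaling, pseudocount, thinning, the rule's limits, doublets and clusters.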

Additional observations from a re-analysis of the deposited data

How the results depend on the processing

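No paired analysis was possible because each treatment is 1 library and no label ties a library number to a treatment. The ratio of endothelial shares stayed inside its counting interval. The 377 genes 5-fold above other cells ranged from 293 with a marker share of at least 0.1% to 516 in clusters 2, 3 and 4, within 1.5 times. Over all settings 402 list medians stayed inside the median counting interval of their genes and 23 left it. Counts past 2-fold depended on the setting. The 182 genes higher in library 2 became 798 with no minimum CPM, 79 with a pseudocount of 10, 329 with the mean of per-cell shares, 1169 with cells thinned to 1000 UMIs, 364 with a marker share of at least 0.4%, 339 with low epithelial marker share, 416 without cells of the highest Scrublet scores, 528 in clusters 2, 3 and 4, and 538 there without marked cells. The 76 lower genes became, in the same order of settings, 573, 27, 187 and 858, then 46 with a share of at least 0.1%, 152 with low epithelial share, 125 without a Ptprc UMI, 154 without the highest Scrublet scores, and 205 and 207. The 5 clusters became 3 without the highest Scrublet scores, 2 at resolution 0.3, 8 at resolution 1 and 4 without mitochondrial genes. At resolution 0.3, 1 cluster held 86 of 87 cells of cluster 2, 75 of 77 of cluster 3 and 58 of 58 of cluster 4. Without mitochondrial genes, 52 of 87 cells of cluster 2 and 49 of 58 of cluster 4 fell in the same cluster. In the other 2 settings clusters 2, 3 and 4 each had a different best match. Without the highest Scrublet scores, however, 63 of 72 cells of cluster 3 shared a cluster with 15 of 16 of cluster 1 and 7 of 7 of cluster 5. The use of clusters 2, 3 and 4 was chosen after seeing the data.

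Log2 ratios of some named genes changed sign. At a share of at least 0.4%, Adgrl4 was at -0.078, Eln at -1.40, Apln at -0.032 and Col4a1 at -0.18. In clusters 2, 3 and 4, without and with removal of marked cells, Eln was at -0.45 and -0.47, Mgp at -0.58 and -0.60, and Aqp3 at -0.45 and -0.47. Aqp3 was at -0.22 without the highest Scrublet scores. After thinning, Cdk1 was at -0.0078 and Egfl7 at -0.080. Apln was at -0.13 with low epithelial share and -0.065 without a Ptprc UMI. Col4a1 was at -0.0094 with TMM factors and -0.0043 with median-of-ratios factors. The cause was not tested. Depth limits the marker-rich values, which rest on 726360 and 533390 UMIs.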
